A study of Homo sapiens with 18 samples.

Results

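SW948 and SW1463 are the 2 colorectal cancer (CRC) cell lines, of 18 in the series, with a high level of OLFM4, and they are set here against 5 other lines with a high level of KRT20. The lines were chosen by measured values: OLFM4 above 10 log2 units for the pair, and KRT20 above 10 without OLFM4 for RCM1, SNUC1, HT55, LS513 and CL40. Established cancer cell lines were grown in culture, and biotin-labelled total RNA of each was measured on 1 whole-transcriptome microarray, with values deposited as log2 intensities. The culture medium was DMEM/F-12 for SW948, SW1463, HT55 and CL40, and it was RPMI-1640 for RCM1, SNUC1 and LS513, there with extra glucose and pyruvate; all media held serum and antibiotics. The labels name no treatment or genetic change for any line.

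A gene was read from its brightest probe set, and a gene was called detected if it exceeded a background level of 4.54 log2 units in at least 1 of the 7 lines. This left 11644 of 19774 genes. A gene was called higher where both SW948 and SW1463 lay above all 5 lines and above background, and lower where both lay below all 5 lines and all 5 were above background. The gap is the distance between the nearest values of the groups, and a difference is the mean of the pair minus the mean of the 5 lines, both in log2 units, where 1 unit is 2-fold. The same arrays chose the lines and the genes, so all values below are descriptions and no test was made. With 1 array a line, the spread over the 5 lines is a spread between different cancers and not between repeats. The precision is limited by having so few arrays. The medians of the arrays ran from 3.65 to 3.69, and each of the 18 lines had between 9725 and 10273 genes above background.

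The lining of the gut is renewed from stem cells at the base of the crypts, which are kept by WNT signals and marked by the receptor LGR5, the transcription factor ASCL2 and, in human crypts, the secreted glycoprotein olfactomedin 4, the product of OLFM4. BMP and TGF-beta signals oppose WNT and favour maturation as cells move up the crypt. KRT20 encodes an intermediate filament protein of mature surface cells. Colorectal cancer lines keep parts of these programmes in different combinations.

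OLFM4 measured 11.31 in SW948 and 10.63 in SW1463, against 2.94 in RCM1, 3.09 in SNUC1, 2.99 in HT55, 3.82 in LS513 and 4.30 in CL40. Both lines of the pair were bright and all 5 others were under background, a difference of 7.54 with an SD of 0.60 over the 5 lines. Counted from background instead of from the dim readings, OLFM4 was at least 86.4-fold higher in the pair. Among the 18 lines, the next below the limit of 10 was LS180, at 4.87. KRT20, the other choosing gene, measured 11.43 in SW948 and 11.58 in SW1463, against 11.68 in RCM1, 12.34 in SNUC1, 12 in HT55, 11.82 in LS513 and 12.24 in CL40. The 7 lines lay within about 1 log2 unit of each other, and the next of the 18, NCIH716, measured 4.87. In bulk RNA, fewer positive cells and less RNA per cell cannot be told apart. Both groups therefore had high KRT20, and the absorptive cell markers VIL1, an actin-bundling protein of microvilli, and LGALS4, a galectin of the brush border, were high in both as well. VIL1 measured 11.65 in SW948 and 11.39 in SW1463, against 11.40 in RCM1, 11.28 in SNUC1, 11.72 in HT55, 11.39 in LS513 and 10.98 in CL40. LGALS4 measured 12.52 in SW948 and 12.30 in SW1463, against 10.75 in RCM1, 12.48 in SNUC1, 12.14 in HT55, 12.30 in LS513 and 12.41 in CL40. VIL1 and LGALS4 overlapped, while KRT20 was lower in the pair by a gap of 0.10. Of 47 measured absorptive cell genes, 22 were above background in SW948, 28 in SW1463 and 19 to 24 in the 5 lines. Not all were high: ALPI and ANPEP were under background in all 7 lines. SLC26A3 measured 3.30 in SW948 and 6.60 in SW1463, and ran from 2.82 to 12.73 in the 5 lines. Of 33 detected genes of the absorptive cell list 30 overlapped, 1 was higher (SLC51A) and 2 were lower. The lower ones were KRT20 and CEACAM6, the second by a difference of -3.16. Over all detected genes 5.75% were higher and 5.15% lower.

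The second stem cell marker did not separate the lines. ASCL2 measured 8.68 in SW948 and 10.37 in SW1463, against 9.14 in RCM1, 9.83 in SNUC1, 10.18 in HT55, 9.93 in LS513 and 6.72 in CL40. SW948 lay below 4 of the 5 lines, and only CL40 was low. OLFM4 chose the pair, so its separation was fixed in advance and cannot be weighed against the overlap of ASCL2. LGR5 measured 8.58 in SW948 and 7.27 in SW1463, against 3.21 in RCM1, 4.31 in SNUC1, 7.92 in HT55, 6.71 in LS513 and 5.39 in CL40. SW948 was the highest of the 7 lines, but SW1463 lay below HT55. SMOC2, a matricellular protein of the crypt base, measured 8.09 in SW948 and 3.54 in SW1463, against 2.84 in RCM1, 2.81 in SNUC1, 6.08 in HT55, 3.18 in LS513 and 5.07 in CL40. It was high in SW948 and under background in SW1463.

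The promoter windows shown are of 4 genes on either side of the contrast, and each runs from 250 bases before to 50 after the annotated start, on the plus strand of RefSeq assembly GRCh38.p14. They are OLFM4 (chr13:53028563-53028862), APCDD1, a WNT inhibitor that was lower in the pair (chr18:10454385-10454684), CEACAM6, an adhesion molecule that was lower (chr19:41755280-41755579), and NR2F1, the 1 higher gene whose window held the TCF/LEF letters (chr5:93582972-93583271). Capitals mark the letters searched, on both strands: CTTTGAT for TCF/LEF, CAGCTG for an E-box, TATAAA for a TATA box, and the NF-kappaB consensus.
OLFM4: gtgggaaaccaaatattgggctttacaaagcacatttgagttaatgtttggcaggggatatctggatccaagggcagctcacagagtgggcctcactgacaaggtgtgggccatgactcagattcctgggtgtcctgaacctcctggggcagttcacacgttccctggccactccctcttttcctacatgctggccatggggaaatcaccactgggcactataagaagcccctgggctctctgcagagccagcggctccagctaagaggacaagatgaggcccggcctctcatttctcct
APCDD1: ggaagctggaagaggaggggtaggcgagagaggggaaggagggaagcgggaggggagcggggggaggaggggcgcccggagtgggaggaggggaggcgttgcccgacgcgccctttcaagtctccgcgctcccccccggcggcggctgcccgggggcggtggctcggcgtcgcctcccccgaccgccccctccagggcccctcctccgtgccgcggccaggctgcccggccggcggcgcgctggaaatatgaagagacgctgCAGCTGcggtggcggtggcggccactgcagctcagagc
CEACAM6: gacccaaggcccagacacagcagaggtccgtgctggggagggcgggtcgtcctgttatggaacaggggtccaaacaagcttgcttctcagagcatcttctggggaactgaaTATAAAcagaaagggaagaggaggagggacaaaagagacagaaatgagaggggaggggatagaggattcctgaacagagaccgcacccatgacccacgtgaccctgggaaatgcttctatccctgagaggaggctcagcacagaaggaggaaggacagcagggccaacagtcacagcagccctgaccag
NR2F1: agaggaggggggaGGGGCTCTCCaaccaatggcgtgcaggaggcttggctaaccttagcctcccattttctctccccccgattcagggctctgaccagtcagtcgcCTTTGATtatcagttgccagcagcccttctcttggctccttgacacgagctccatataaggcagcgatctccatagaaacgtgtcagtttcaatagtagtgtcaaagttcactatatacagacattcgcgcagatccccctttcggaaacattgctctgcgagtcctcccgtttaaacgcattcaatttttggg
The OLFM4 window held none of these letters. The APCDD1 window held the E-box letters 13 bases after the start, the CEACAM6 window the TATA box letters at -139, and the NR2F1 window the TCF/LEF letters at -144 and the NF-kappaB consensus at -237. No motif overlapped another. Of 40 named higher genes, 31 had a window, of which 1 held the TCF/LEF letters, 3 the E-box, 3 the TATA box and 2 the NF-kappaB consensus. Of 45 named lower genes, 34 had a window, of which 0, 6, 3 and 3 held these in the same order. Among 27305 promoters the shares were 2.64%, 17.7%, 12% and 5.72%.

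Across all detected genes, 669 were higher in both lines (5.75% of 11644) and 600 were lower (5.15%). With a gap of at least 1 log2 unit, 31 were higher (0.266%) and 32 were lower (0.275%). Most separations were narrow: the median gap was 0.16 for higher and 0.17 for lower genes, and the median difference was 0.75 and -0.75, against 0.01 over all detected genes. Among the higher genes, 32 were at or under background in all 5 lines, and 31 of the lower genes were at or under background in both lines of the pair. The crypt base list had 24 detected genes of 26 measured, and 4 were higher, 2 lower and 18 overlapping, with a median difference of 0.43. OLFM4 is 1 of these 4, and its call was fixed by the choice of lines. The others had narrow gaps, 0.26 for RGMB, 0.36 for CDCA7 and 0.49 for MEX3A. The lists, like the lines, were drawn up with earlier results of these data known, so their counts are set beside the shares of all genes and no more is read from them.

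Besides OLFM4, the higher crypt base genes were RGMB, CDCA7 and MEX3A. RGMB, a BMP co-receptor, measured 8.78 in SW948 and 8.86 in SW1463, against 6.12 in RCM1, 6.39 in SNUC1, 6.96 in HT55, 8.52 in LS513 and 6.63 in CL40. All but LS513 lay far below the pair. CDCA7, a DNA-binding protein linked to MYC, measured 10.55 in SW948 and 10.84 in SW1463, against 9.49 in RCM1, 8.37 in SNUC1, 8.52 in HT55, 10.20 in LS513 and 7.64 in CL40. MEX3A, an RNA-binding protein of slow-cycling crypt cells in mice, measured 5.09 in SW948 and 6.27 in SW1463, against 4.19 in RCM1, 4.60 in SNUC1, 4.30 in HT55, 4.53 in LS513 and 4.54 in CL40. The 5 lines were near background for MEX3A, and SW948 was close to them. The 2 lower genes of this list were ZNRF3, a ligase that removes WNT receptors, with 8.34 and 8.27 in SW948 and SW1463 and 8.54 to 9.57 in the 5 lines, and BMI1, a Polycomb protein, with 8.99 and 8.88 in the pair and 9.0 to 9.47 in the 5 lines. Among the overlapping genes, PROM1, a membrane protein of protrusions, measured 9.21 in SW948 and 7.93 in SW1463, against 3.28 in RCM1, 7.66 in SNUC1, 4.78 in HT55, 11.12 in LS513 and 3.44 in CL40, and LS513 exceeded both. CLDN2, a claudin that forms cation pores, measured 9.03 in SW948 and 10.34 in SW1463, against 7.89 in RCM1, 8.02 in SNUC1, 3.33 in HT55, 7.83 in LS513 and 9.51 in CL40, with SW948 below CL40.

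**Figure D1:**
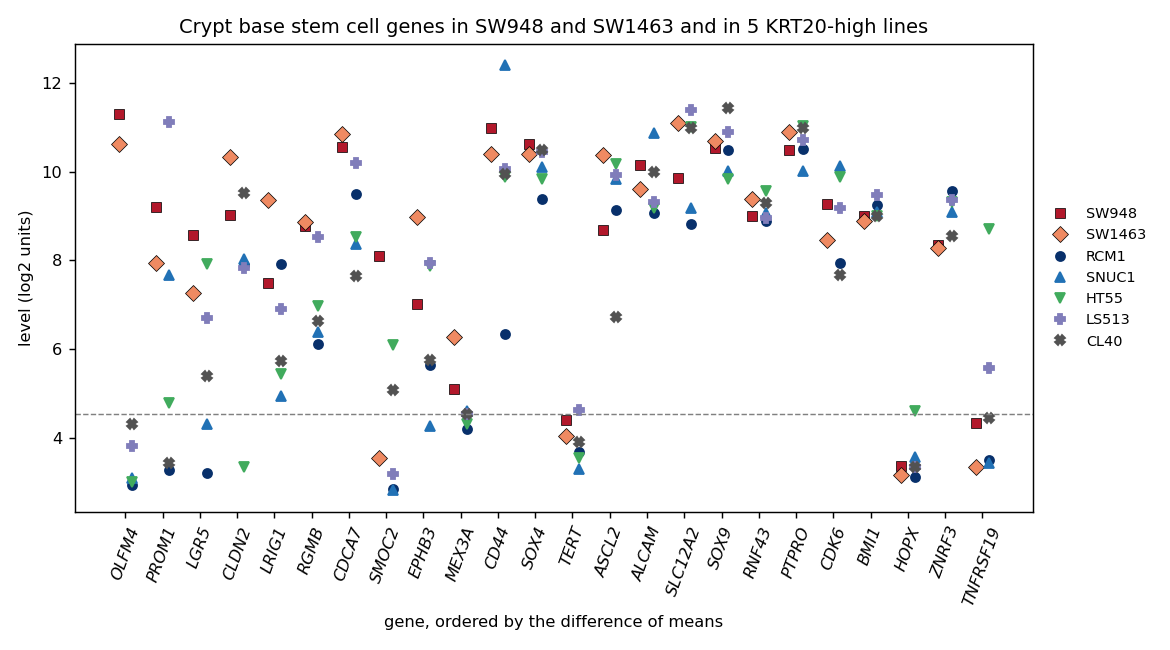
Level in log2 units of the 24 detected crypt base genes, ordered by the difference of means, with SW948 and SW1463 left of each tick and the 5 other lines right of it; the dashed line is the background level of 4.54. OLFM4, which chose the lines, is the 1 gene with a wide gap, while ASCL2 and LGR5 overlap between the groups.

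Of 22 detected WNT target and feedback genes, 1 was higher, 4 were lower and 17 overlapped. Over all detected genes 5.75% were higher and 5.15% lower. In this list 5 genes had a positive difference, and the median difference was -0.81. NKD1, a feedback inhibitor that binds Dishevelled, measured 4.81 in SW948 and 4.85 in SW1463, against 6.06 in RCM1, 7.17 in SNUC1, 8.71 in HT55, 7.29 in LS513 and 6.18 in CL40. Both lines of the pair were barely above background and every other line exceeded them by more than 1 unit. APCDD1, a membrane inhibitor of WNT, measured 4.69 in SW948 and 4.19 in SW1463, against 9.01 in RCM1, 5.85 in SNUC1, 11.92 in HT55, 7.39 in LS513 and 5.98 in CL40. SW1463 was under background, and the 5 lines ranged widely, with an SD of 2.53. BMP4, a ligand of the BMP pathway that WNT can induce, measured 9.40 in SW948 and 9.90 in SW1463, against 11.33 in RCM1, 11.91 in SNUC1, 10.02 in HT55, 11.51 in LS513 and 10.52 in CL40. PRR5, a subunit of mTORC2, was lower too, with 6.73 and 6.62 in the pair and 6.79 to 7.77 in the 5 lines. VSNL1, a neuronal calcium sensor listed as a WNT target in tumours, was the 1 higher gene, and it measured 11.09 in SW948 and 10.35 in SW1463, against 9.70 in RCM1, 7.04 in SNUC1, 9.91 in HT55, 10.15 in LS513 and 5.59 in CL40. AXIN2, the standard feedback target, overlapped at 9.33 in SW948 and 8.89 in SW1463, against 9.28 in RCM1, 10.85 in SNUC1, 11.44 in HT55, 9.81 in LS513 and 9.38 in CL40. MYC, a WNT target that drives growth, was 11.83 and 11.85 in the pair and 10.08 to 12.39 in the 5 lines and overlapped.

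TGF-beta and BMP genes had 25 detected members, none higher and 5 lower, against 5.75% and 5.15% of all detected genes. Their median difference was -0.66. BAMBI, a decoy receptor for TGF-beta, measured 6.21 in SW948 and 3.22 in SW1463, against 10.75 in RCM1, 9.98 in SNUC1, 11.41 in HT55, 8.93 in LS513 and 8.44 in CL40. The difference was -5.19 with an SD of 1.23, and SW1463 lay under background. PMEPA1, a feedback inhibitor induced by TGF-beta, measured 3.26 in SW948 and 4.04 in SW1463, against 8.99 in RCM1, 6.46 in SNUC1, 11.42 in HT55, 4.77 in LS513 and 7.92 in CL40. Both lines of the pair were under background and LS513 just above it. SMAD7, the inhibitory SMAD, measured 5.51 in SW948 and 3.32 in SW1463, against 6.33 in RCM1, 8.55 in SNUC1, 8.86 in HT55, 5.99 in LS513 and 8.0 in CL40. SMAD2, a signal-carrying SMAD, was lower by a small margin, with 8.69 and 8.55 in the pair and 8.81 to 9.43 in the 5 lines, and BMP4 is counted in this list as well. The direct target ID1, an inhibitor of helix-loop-helix factors, measured 10.54 in SW948 and 8.40 in SW1463, against 11.77 in RCM1, 12.28 in SNUC1, 12.59 in HT55, 10.06 in LS513 and 10.76 in CL40. SW1463 was the lowest of the 7 lines for ID1, but SW948 lay above LS513. The receptors TGFBR1 and TGFBR2 and the co-SMAD SMAD4 overlapped, with differences of 0.04, -0.07 and -0.00. Notch pathway genes mostly overlapped, as most of all detected genes did. Of 15 Notch genes detected, the receptor NOTCH1 alone was lower, at 6.21 and 6.12 in the pair and 6.22 to 9.11 in the 5 lines.

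The gene next to OLFM4 by width of gap was IPW, an imprinted non-coding RNA of the Prader-Willi region on chromosome 15. It measured 5.92 in SW948 and 6.83 in SW1463, against 2.95 in RCM1, 3.05 in SNUC1, 3.02 in HT55, 3.22 in LS513 and 2.90 in CL40. All 5 lines were under background, and of the 11 other lines 2 exceeded the lower of the pair. FAM3B, a secreted cytokine-like protein, measured 7.99 in SW948 and 6.89 in SW1463, against 3.06 in RCM1, 2.98 in SNUC1, 4.57 in HT55, 3.17 in LS513 and 2.80 in CL40. None of the 11 other lines exceeded 3.28. TSPAN7, a tetraspanin, measured 5.77 in SW948 and 7.89 in SW1463, against 3.65 in RCM1, 3.29 in SNUC1, 3.58 in HT55, 3.45 in LS513 and 3.48 in CL40. PLTP, a phospholipid transfer protein, measured 6.26 in SW948 and 8.22 in SW1463, against 3.65 in RCM1, 4.22 in SNUC1, 3.93 in HT55, 4.0 in LS513 and 3.75 in CL40. GPRIN3, a protein that interacts with G proteins, was 5.63 and 6.20 in the pair and 3.19 to 3.51 in the 5 lines, and PARVB, a parvin of focal adhesions, was 5.46 and 6.12 in the pair and 3.37 to 3.68 in the 5 lines. For these 4 genes the 5 lines were all under background, so the fold changes rest on where background lies. A second probe set of GPRIN3 was under background in all 7 lines and did not separate the groups. For PARVB, 5 of the 11 other lines reached SW948 or more.

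RARRES1, a membrane protein named for its response to retinoids, measured 9.46 in SW948 and 7.22 in SW1463, against 3.55 in RCM1, 5.42 in SNUC1, 3.29 in HT55, 3.47 in LS513 and 4.51 in CL40. LXN, or latexin, a carboxypeptidase inhibitor related to it, measured 8.94 in SW948 and 8.72 in SW1463, against 6.85 in RCM1, 3.80 in SNUC1, 4.44 in HT55, 6.74 in LS513 and 5.92 in CL40. Both genes lie next to each other among detected genes on chromosome 3. Between them and the lower gene with the widest gap, MLF1, lay only GFM1. MLF1, a protein first found fused in myeloid leukaemia, measured 2.90 in SW948 and 3.20 in SW1463, against 9.80 in RCM1, 9.74 in SNUC1, 7.33 in HT55, 8.76 in LS513 and 9.47 in CL40. It was under background in both lines of the pair and above 7 in all 5 others, a difference of -5.97. Counted from background, MLF1 was at least 22.4-fold lower in the pair. GFM1, a mitochondrial elongation factor, overlapped at 9.55 and 9.36 in the pair and 8.98 to 10.41 in the 5 lines, so neighbours differed in opposite directions within 4 detected genes. This neighbourhood was looked up after the values were seen.

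ARSL, a sulfatase of the Golgi, measured 9.18 in SW948 and 8.85 in SW1463, against 3.98 in RCM1, 3.61 in SNUC1, 7.14 in HT55, 3.62 in LS513 and 7.20 in CL40. The 2 lines in the same medium as the pair, HT55 and CL40, were nearest to it, and against them alone the difference was 1.85 instead of 3.90. CIBAR1, a membrane-bending protein of the ciliary base, measured 8.58 in SW948 and 9.01 in SW1463, against 6.84 in RCM1, 4.86 in SNUC1, 3.56 in HT55, 5.69 in LS513 and 4.06 in CL40. SLC7A2, a transporter of basic amino acids, measured 7.77 in SW948 and 6.08 in SW1463, against 4.46 in RCM1, 4.47 in SNUC1, 4.52 in HT55, 3.92 in LS513 and 4.56 in CL40. Of the 11 other lines, 7 reached SW1463 or more for SLC7A2. Its second probe set was under background in all 7 lines and differed by 0.05. ASRGL1, an asparaginase on chromosome 11, was 7.18 and 8.29 in the pair and 4.23 to 5.94 in the 5 lines, and 6 of the 11 other lines reached SW948 or more. CHP2, a cofactor of sodium-proton exchangers, measured 5.07 in SW948 and 8.12 in SW1463, against 3.49 in RCM1, 3.86 in SNUC1, 3.57 in HT55, 3.61 in LS513 and 3.45 in CL40, and it was under background in all 5. LINC01106, a long non-coding RNA, was 8.44 and 8.75 in the pair and 5.33 to 6.67 in the 5 lines.

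Transcription factors had members on both sides. FOXA2, a pioneer factor of the endoderm, measured 8.17 in SW948 and 8.26 in SW1463, against 6.49 in RCM1, 6.39 in SNUC1, 6.90 in HT55, 6.91 in LS513 and 5.79 in CL40. The pair was nearly level, and 1 of the 11 other lines, NCIH716, reached SW948. NR2F1, an orphan nuclear receptor, measured 7.89 in SW948 and 7.78 in SW1463, against 4.68 in RCM1, 6.60 in SNUC1, 3.41 in HT55, 4.45 in LS513 and 7.35 in CL40. For NR2F1, 8 of the 11 other lines reached SW1463 or more, and their median was 8.55. ESRRA, a nuclear receptor of mitochondrial genes, was 8.22 and 8.34 in the pair and 7.36 to 8.09 in the 5 lines, and GATA6, a zinc finger factor of the gut, was 8.75 and 8.86 in the pair and 7.63 to 8.72 in the 5 lines. On the lower side, PRDM1, or Blimp-1, a repressor of the immature gut in mice, measured 4.62 in SW948 and 5.39 in SW1463, against 6.75 in RCM1, 8.68 in SNUC1, 7.61 in HT55, 7.28 in LS513 and 6.37 in CL40. ELF3, an epithelial ETS factor, measured 9.92 in SW948 and 9.92 in SW1463, against 10.34 in RCM1, 10.34 in SNUC1, 10.91 in HT55, 10.45 in LS513 and 10.33 in CL40, and KLF5, a Krüppel-like factor of the crypt, was 9.49 and 9.99 in the pair and 10.06 to 10.99 in the 5 lines. Of the 23 detected intestinal transcription factors 4 were higher, 3 lower and 16 overlapping. Over all detected genes the shares were 5.75% higher and 5.15% lower. CDX2, the factor that sets intestinal identity, overlapped at 8.69 and 7.44 in the pair and 7.02 to 8.89 in the 5 lines. Of 13 detected HOX genes none had both lines of the pair above, or both below, all 5 lines. Single lines did leave the range: HOXB6 was 9.40 in SW948 and 7.61 in SW1463, against 8.97 to 9.50 in the 5 lines.

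Zinc finger genes were frequent among the higher genes, a grouping chosen after the values were seen. ZNF85 measured 7.47 in SW948 and 7.18 in SW1463, against 5.08 in RCM1, 4.90 in SNUC1, 5.24 in HT55, 5.42 in LS513 and 4.09 in CL40. ZNF93 measured 7.09 in SW948 and 7.11 in SW1463, against 5.66 in RCM1, 5.01 in SNUC1, 5.25 in HT55, 5.36 in LS513 and 4.79 in CL40. The pair was alike in both genes, and both lie in the same cluster on chromosome 19. ZNF599 was 5.05 and 5.07 in the pair and 3.0 to 3.70 in the 5 lines, and ZNF529 was 6.19 and 6.32 in the pair and 2.81 to 4.96 in the 5 lines. Of 130 detected genes named ZNF on chromosome 19, 29 were higher (22.3%) and 1 was lower, against 18 of 610 other genes of that chromosome higher (2.95%) and 17 of 195 ZNF genes elsewhere (8.72%). These genes are similar in sequence, so single values are uncertain, and the second probe set of ZNF85, ZNF599 and ZNF529, under background in all 7 lines, did not separate the groups, while that of ZNF93 did.

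**Figure D2:**
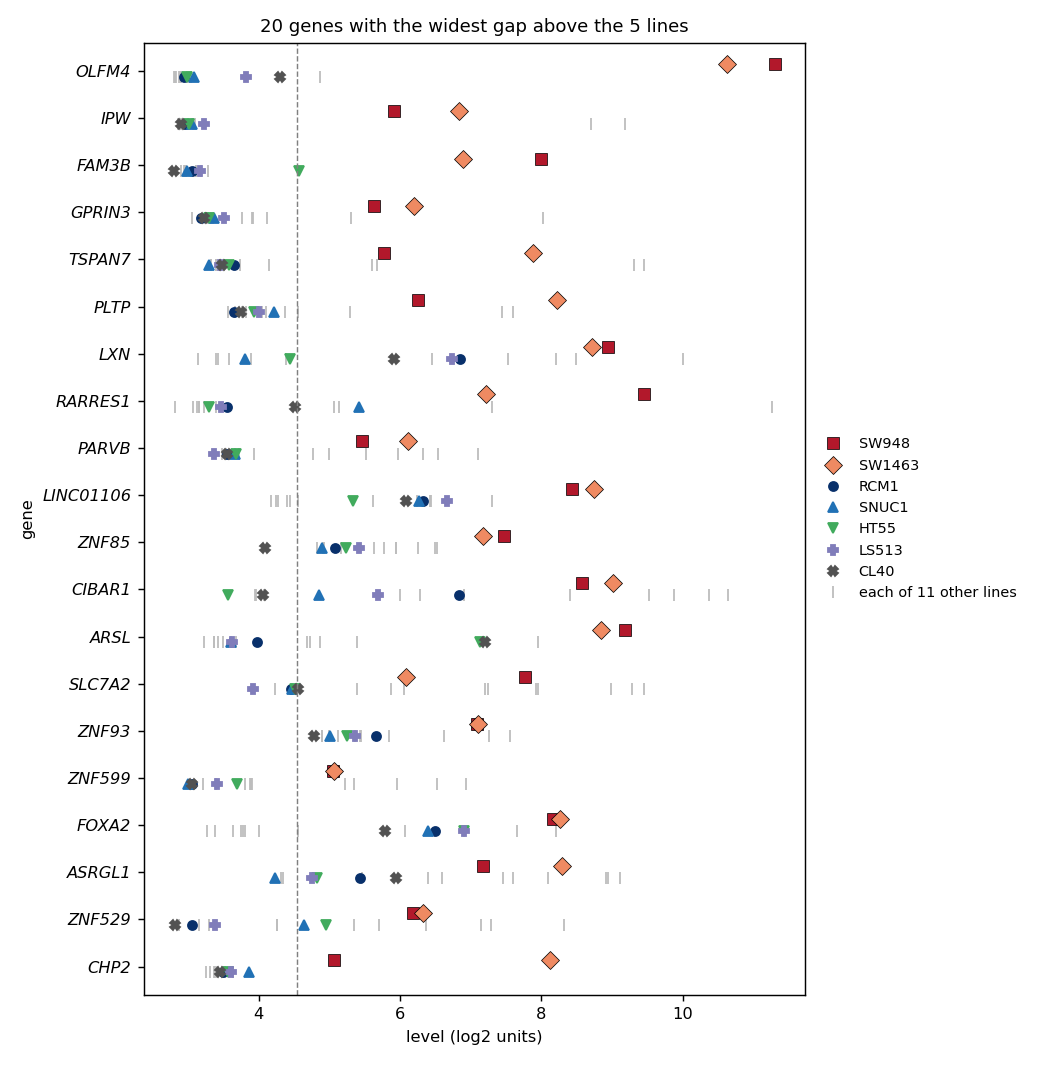
Level in log2 units of the 20 genes with the widest gap above the 5 lines, with SW948 and SW1463 above each row's centre, the 5 lines below it and the 11 other lines as grey ticks; the dashed line is background at 4.54. OLFM4 and FAM3B are high in the pair and in none of the others, while SLC7A2 and CIBAR1 are also high in several of the 11 other lines. CHP2 is above background in the pair alone, at 5.07 in SW948 and 8.12 in SW1463.

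Below the 5 lines, UCA1, a long non-coding RNA first found in bladder cancer, followed MLF1. It measured 5.17 in SW948 and 5.67 in SW1463, against 10.37 in RCM1, 8.71 in SNUC1, 11.75 in HT55, 11.27 in LS513 and 11.14 in CL40. The median of the 11 other lines was 3.72, so the pair itself lay above most of them. PLS3, an actin-bundling plastin on the X chromosome, measured 2.78 in SW948 and 6.97 in SW1463, against 10.90 in RCM1, 10.35 in SNUC1, 10.81 in HT55, 9.90 in LS513 and 10.38 in CL40. The 11 other lines ran from 8.52 to 11.47 for PLS3, all above the pair. ZNF22, a zinc finger protein, measured 3.16 in SW948 and 2.95 in SW1463, against 6.80 in RCM1, 7.26 in SNUC1, 6.03 in HT55, 7.70 in LS513 and 7.57 in CL40. GNE, the enzyme that starts sialic acid synthesis, measured 7.59 in SW948 and 3.72 in SW1463, against 9.52 in RCM1, 11.18 in SNUC1, 9.59 in HT55, 10.92 in LS513 and 10.87 in CL40. RORA, a nuclear receptor of circadian genes on chromosome 15, measured 3.68 in SW948 and 3.52 in SW1463, against 7.21 in RCM1, 5.52 in SNUC1, 10.14 in HT55, 6.28 in LS513 and 7.66 in CL40. ZNF22 and RORA were under background in both lines of the pair, and GNE in SW1463 only.

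CEACAM6 and SLPI were lower in the pair while staying well above background there. CEACAM6 measured 7.94 in SW948 and 8.63 in SW1463, against 10.84 in RCM1, 11.72 in SNUC1, 11.01 in HT55, 11.64 in LS513 and 12.05 in CL40. The difference was -3.16 with an SD of 0.51, and the gap was 2.21. SLPI, a protease inhibitor secreted at mucosal surfaces, measured 7.28 in SW948 and 8.13 in SW1463, against 10.65 in RCM1, 10.44 in SNUC1, 10.32 in HT55, 10.84 in LS513 and 10.88 in CL40. GRHL3, a grainyhead-like factor of barrier epithelia, measured 3.32 in SW948 and 3.40 in SW1463, against 5.79 in RCM1, 8.08 in SNUC1, 6.77 in HT55, 6.36 in LS513 and 7.75 in CL40. GRHL3 was at or under background in both lines of the pair and above it in all 5 others. CLIC5, an actin-linked chloride channel protein, was 4.83 and 5.16 in the pair and 7.36 to 8.30 in the 5 lines. RUNX1, a transcription factor, was 5.97 and 5.36 in the pair and 7.79 to 8.52 in the 5 lines, though its second probe set overlapped with a difference of 0.04. DRAM1, a p53 target of autophagy, was 4.50 and 4.39 in the pair and 6.08 to 7.61 in the 5 lines, and GDPD3, a lysophospholipase, 3.59 and 3.70 in the pair and 5.21 to 9.49 in the 5 lines. The second probe set of DRAM1 also overlapped, with a difference of -0.38 instead of -2.61.

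**Figure D3:**
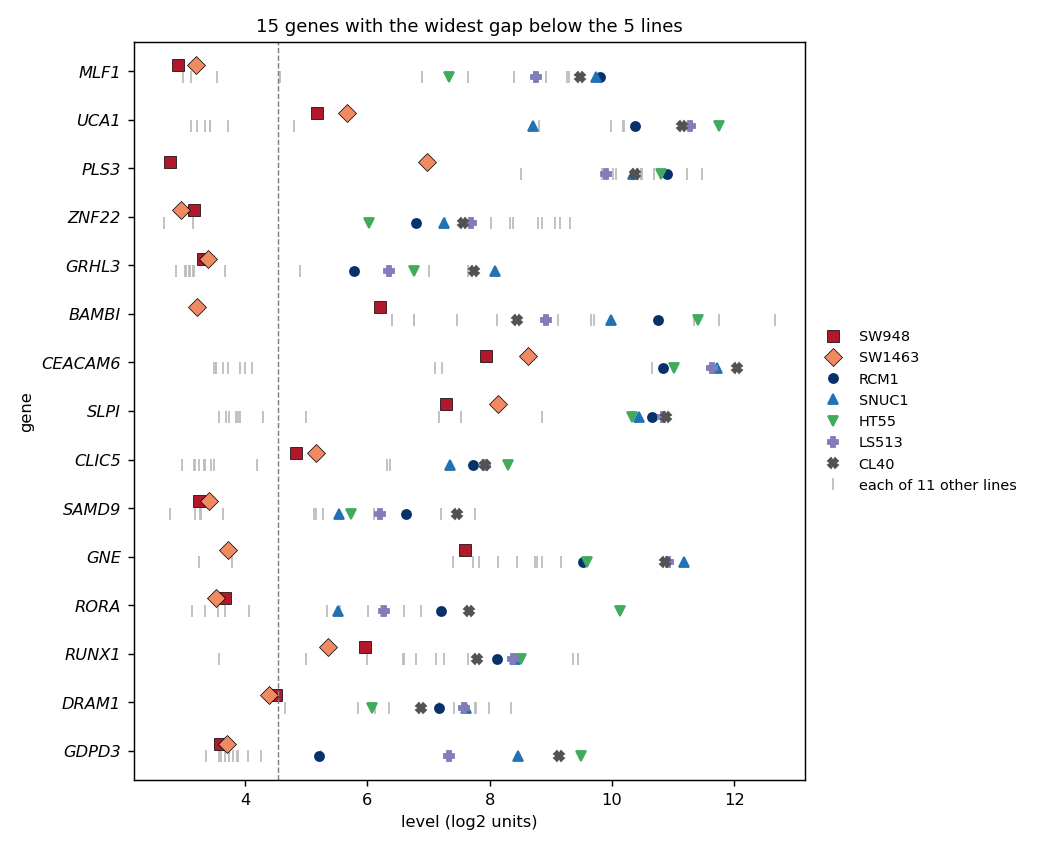
Level in log2 units of the 15 genes with the widest gap below the 5 lines, drawn as for the higher genes, with the dashed line at the background of 4.54. MLF1, ZNF22 and RORA are under background in SW948 and SW1463; CEACAM6, SLPI and UCA1 are low or absent in most of the 11 other lines as well, while PLS3 is not.

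Among structural genes of the epithelium most overlapped between the groups, as most of all detected genes did. Of 11 detected keratins, 4 were lower, 7 overlapped and none was higher, with a median difference of -0.81. Over all detected genes 5.15% were lower and 5.75% higher. KRT8, a type II keratin of simple epithelia, measured 11.06 in SW948 and 12.23 in SW1463, against 12.90 in RCM1, 12.84 in SNUC1, 12.66 in HT55, 12.63 in LS513 and 13.03 in CL40, and its partner KRT18 measured 12.19 in SW948 and 12.71 in SW1463, against 13.31 in RCM1, 13.21 in SNUC1, 12.94 in HT55, 13 in LS513 and 13.37 in CL40. KRT19 measured 11.54 in SW948 and 11.55 in SW1463, against 12.29 in RCM1, 12.03 in SNUC1, 12.43 in HT55, 12.30 in LS513 and 12.74 in CL40, and KRT20, which chose the lines, was the fourth. All 4 were among the brightest genes of both groups. Of 33 detected junction and adhesion genes 28 overlapped, 4 were lower and 1 was higher, with a median difference of -0.16. CGN, or cingulin, a tight junction protein, measured 6.62 in SW948 and 6.29 in SW1463, against 7.69 in RCM1, 8.09 in SNUC1, 7.99 in HT55, 7.97 in LS513 and 8.22 in CL40. JUP, or plakoglobin, was 9.07 and 8.78 in the pair and 9.28 to 10.17 in the 5 lines. LAMB3, a laminin of the basement membrane, was 6.92 and 7.69 in the pair and 7.85 to 9.75 in the 5 lines, and TJP1, a scaffold of tight junctions, 9.45 and 8.75 in the pair and 9.45 to 10.76 in the 5 lines. CLDN12, a claudin, was the 1 higher gene, at 9.82 and 10.09 in the pair and 8.95 to 9.80 in the 5 lines.

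Of all detected genes 5.75% were higher and 5.15% lower, so that most genes overlapped. Of 33 absorptive cell genes detected, 1 was higher and 2 were lower, with a median difference of -0.08. SLC51A, a bile acid exporter, was the higher one and measured 6.35 in SW948 and 6.29 in SW1463, against 3.37 in RCM1, 5.71 in SNUC1, 4.49 in HT55, 3.32 in LS513 and 3.78 in CL40. Secretory genes were uneven. Of 18 goblet cell genes 1 was higher, STARD10, a phospholipid carrier on chromosome 11, at 9.62 and 9.77 in the pair and 8.19 to 9.58 in the 5 lines, and the list's median difference was 0.64. SPINK4, a goblet cell peptide, measured 10.08 in SW948 and 10.64 in SW1463, against 3.64 in RCM1, 6.13 in SNUC1, 3.14 in HT55, 12.20 in LS513 and 5.69 in CL40. DEFA5, a Paneth cell defensin, measured 8.42 in SW948 and 10.20 in SW1463, against 3.48 in RCM1, 3.58 in SNUC1, 2.97 in HT55, 9.92 in LS513 and 3.33 in CL40. LYZ, or lysozyme, measured 11.51 in SW948 and 10.79 in SW1463, against 10.60 in RCM1, 8.86 in SNUC1, 4.85 in HT55, 11.09 in LS513 and 6.85 in CL40. For SPINK4 and DEFA5 the pair and LS513 were high together, and the other 4 lines were lower. KLK1 of the goblet cell list showed the same pattern, but other members did not. MUC2 was 5.64 in SW948 and 4.49 in SW1463, with CL40 highest at 7.79. DEFA6 was 7.03 in SW948, below HT55 at 7.24, and REG4 was 9.22 in CL40, above both lines of the pair. No Paneth gene of 11 detected separated the groups, nor any of 6 enteroendocrine and 4 tuft cell genes, and most of all detected genes did not either.

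Glycolysis and hypoxia genes had 26 detected members, 5 higher and none lower, against 5.75% and 5.15% of all detected genes. Their median difference was 0.41, and 21 differences were positive. PDK1, the kinase that shuts pyruvate out of mitochondria, measured 9.73 in SW948 and 9.68 in SW1463, against 8.10 in RCM1, 8.87 in SNUC1, 7.82 in HT55, 9.02 in LS513 and 8.60 in CL40. ALDOC, an aldolase, measured 8.96 in SW948 and 9.77 in SW1463, against 7.64 in RCM1, 8.10 in SNUC1, 7.26 in HT55, 8.22 in LS513 and 8.61 in CL40. NDRG1, a stress gene induced by low oxygen, measured 10.38 in SW948 and 10.58 in SW1463, against 7.60 in RCM1, 10.07 in SNUC1, 9.51 in HT55, 9.49 in LS513 and 8.27 in CL40. PFKFB4, a regulator of phosphofructokinase, was 5.88 and 6.31 in the pair and 4.25 to 5.59 in the 5 lines, and LDHA, lactate dehydrogenase A, 12.72 and 12.65 in the pair and 12.14 to 12.65 in the 5 lines, a gap of 0.01. The glucose transporter SLC2A1 ran the other way without separating, at 7.22 in SW948 and 9.43 in SW1463, against 11.12 in RCM1, 8.68 in SNUC1, 9.91 in HT55, 8.41 in LS513 and 8.89 in CL40. RCM1, SNUC1 and LS513 were grown with extra glucose, and its part in these values was not tested. Against HT55 and CL40, which shared the medium of the pair, PFKFB4 differed by 1.77, against 1.19 over all 5 lines.

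In other metabolic and signalling lists most genes overlapped, as most of all detected genes did, with 5.75% higher and 5.15% lower. Of 26 genes of cholesterol and fatty acid synthesis, SREBF2, the master factor of sterol synthesis, was 7.41 and 7.49 in the pair and 6.71 to 7.27 in the 5 lines. FADS2, a fatty acid desaturase on chromosome 11, was 4.96 and 9.14 in the pair and 4.37 to 4.93 in the 5 lines, high in SW1463 only. NSDHL, a sterol dehydrogenase on the X chromosome, was lower at 7.42 and 7.42 in the pair and 7.68 to 9.50 in the 5 lines. Of 23 genes of fatty acid oxidation 1 was lower, the acyl-CoA synthetase ACSL5, at 9.93 and 10.20 in the pair and 10.59 to 11.45 in the 5 lines. Of 47 xenobiotic and glutathione genes 2 were higher and 3 lower. GSTA4, a glutathione transferase for lipid aldehydes, measured 8.54 in SW948 and 7.76 in SW1463, against 5.53 in RCM1, 5.31 in SNUC1, 5.90 in HT55, 7.54 in LS513 and 7.09 in CL40, and GSTT1, another transferase, was 7.51 and 7.22 in the pair and 2.74 to 7.09 in the 5 lines. SULT2B1, a sterol sulfotransferase, measured 4.13 in SW948 and 4.01 in SW1463, against 5.09 in RCM1, 7.59 in SNUC1, 6.96 in HT55, 5.65 in LS513 and 6.80 in CL40, and HMOX1, haem oxygenase 1, was 4.81 and 5.11 in the pair and 5.51 to 7.64 in the 5 lines. ABCC3, an efflux pump of conjugates, was 8.52 and 8.56 in the pair and 8.72 to 9.87 in the 5 lines.

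Of 29 EGF receptor and MAPK genes 1 was higher and 3 lower, against 5.75% and 5.15% of all detected genes. EPHA2, an ephrin receptor, measured 7.49 in SW948 and 8.76 in SW1463, against 9.33 in RCM1, 9.61 in SNUC1, 10.16 in HT55, 9.37 in LS513 and 10.37 in CL40. ERBB2, the receptor HER2, was 7.37 and 7.10 in the pair and 7.40 to 8.33 in the 5 lines, and FOSL1, an AP-1 subunit, 6.58 and 6.16 in the pair and 6.61 to 8.41 in the 5 lines. SPRY1, a feedback inhibitor of receptor kinases, was higher at 7.83 and 7.65 in the pair and 6.74 to 7.51 in the 5 lines. Among 25 genes of YAP and the regenerating epithelium the median difference was -0.79. AMOTL2, an angiomotin that binds YAP, measured 7.30 in SW948 and 7.65 in SW1463, against 9.99 in RCM1, 8.86 in SNUC1, 8.70 in HT55, 8.39 in LS513 and 9.12 in CL40. PTPN14, a phosphatase that restrains YAP, was 8.12 and 7.82 in the pair and 8.17 to 9.31 in the 5 lines, and TEAD4, the DNA-binding partner of YAP, was higher at 8.35 and 8.57 in the pair and 7.22 to 8.32 in the 5 lines. Ion transport had KCNQ1, a potassium channel subunit on chromosome 11, higher at 8.83 and 9.80 in the pair and 7.72 to 8.82 in the 5 lines. SCNN1A, a subunit of the sodium channel ENaC, was lower at 9.46 and 9.46 in the pair and 9.73 to 10.32 in the 5 lines, and AQP3, a water and glycerol channel, at 6.40 and 6.63 in the pair and 6.67 to 8.26 in the 5 lines.

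Inflammatory genes mostly overlapped between the groups, as most of all detected genes did. Of 17 NF-kappaB and mucosal defence genes none separated, although 4 had a positive difference and the median was -0.91. LCN2, an iron-scavenging defence protein, measured 7.84 in SW948 and 6.93 in SW1463, against 12.03 in RCM1, 8.81 in SNUC1, 7.36 in HT55, 12.24 in LS513 and 9.89 in CL40. CXCL1, a neutrophil chemokine, measured 6.71 in SW948 and 5.27 in SW1463, against 5.60 in RCM1, 10.56 in SNUC1, 3.44 in HT55, 7.83 in LS513 and 10.66 in CL40. CL40 was the highest of the 7 lines for CXCL1, and HT55 the lowest. Of 39 interferon response genes 2 were lower, with a median difference of -0.58. SAMD9, an antiviral factor, measured 3.25 in SW948 and 3.41 in SW1463, against 6.63 in RCM1, 5.54 in SNUC1, 5.74 in HT55, 6.21 in LS513 and 7.46 in CL40, and OASL, a relative of the OAS enzymes, measured 3.76 in SW948 and 5.25 in SW1463, against 7.35 in RCM1, 7.29 in SNUC1, 5.52 in HT55, 5.77 in LS513 and 10.40 in CL40. None of 22 MHC genes separated, and most of all detected genes did not either.

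Cell cycle genes mostly overlapped, as most of all detected genes did. Of 37 cell cycle genes detected, 2 were higher and none lower, and the median difference was 0.18. AURKB, a mitotic kinase, measured 9.39 in SW948 and 8.73 in SW1463, against 8.40 in RCM1, 8.01 in SNUC1, 8.36 in HT55, 8.29 in LS513 and 7.44 in CL40, and BUB1, a spindle checkpoint kinase, was 9.28 and 8.90 in the pair and 8.32 to 8.75 in the 5 lines. The second probe set of AURKB, under background in all 7 lines, had the opposite direction (-0.27), and that of BUB1 overlapped with a difference of 0.54. Markers of other cell types were mostly under background. Of 14 leukocyte markers 1 was detected, the epithelial product LYZ, and PTPRC was under background in all 7 lines. No endothelial marker of 10 was detected. The mean level of the 23 fibroblast markers was 3.39 to 3.42 in the pair and 3.43 to 3.81 in the 5 lines. Of 9 gastric, 7 fibroblast and 3 hepatocyte genes detected, none separated, and of 5 squamous genes SFN, or 14-3-3 sigma, was lower at 10.65 and 11.15 in the pair and 11.38 to 12.45 in the 5 lines.

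**Figure D4:**
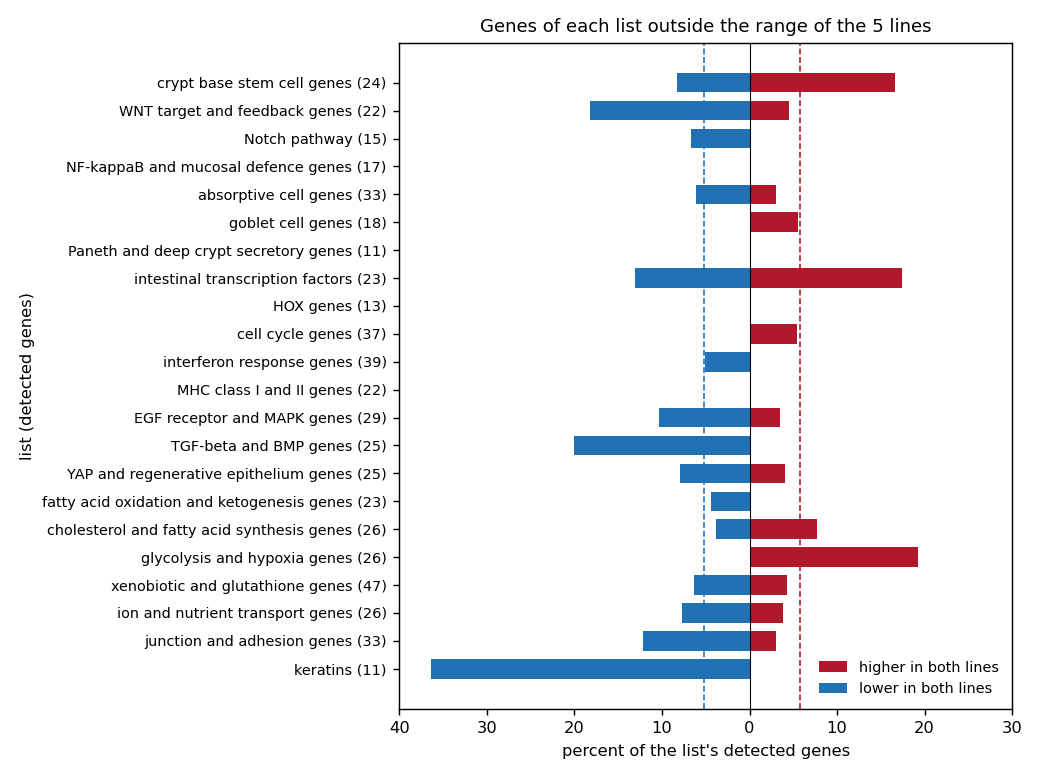
Percent of the detected genes of each list (number in brackets, lists of at least 10 shown) that were higher (right) or lower (left) in both SW948 and SW1463 than in all 5 lines; dashed lines mark 5.75% and 5.15% over all detected genes. Glycolysis and hypoxia genes (5 of 26), intestinal transcription factors (4 of 23) and crypt base genes (4 of 24) reach farthest to the right, the last 2 lists with 3 and 2 lower genes as well. The higher crypt base genes include OLFM4, whose call was fixed by the choice of lines. Keratins (4 of 11), TGF-beta and BMP genes (5 of 25) and WNT genes (4 of 22) reach farthest to the left.

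The higher and lower genes were spread unevenly over the chromosomes, which were compared after the values were seen. On chromosome 11, 142 of 665 detected genes were higher (21.4%) and 13 lower (1.95%). When its genes were taken in 13 consecutive blocks of about 50, the share of higher genes exceeded 5.75% in all 13, from 7.84% to 29.4%. The median deviation of chromosome 11 genes from the mean of the 7 lines was 0.36 in SW948 and 0.08 in SW1463, against -0.03 in RCM1, -0.03 in SNUC1, -0.18 in HT55, -0.13 in LS513 and -0.11 in CL40. Without SW948 28.7% of chromosome 11 genes were higher, against 15.1% of all genes. Without SW1463 the share was 50.2%, against 16.9% of all. On chromosome 15, 60 of 376 genes were lower (16%) and 1, IPW, was higher. Its median deviations were -0.26 in SW948 and -0.20 in SW1463, against 0.36 in RCM1, 0.04 in SNUC1, 0.17 in HT55, -0.08 in LS513 and -0.08 in CL40. Chromosomes 11 and 15 were the 2 of 23 on which both lines of the pair lay outside the range of the 5 lines.

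Smaller excesses of higher genes were found on chromosome 13, with 30 of 219 (13.7%), and on chromosome 20, with 33 of 331 (9.97%). OLFM4 lies on chromosome 13, and FOXA2 and PLTP on chromosome 20. The excess on chromosome 20 depended on SW1463, since without it 14.4% of its genes were higher, against 16.9% of all genes. SW948 had a median deviation of 0.02 there, below RCM1 (0.23) and SNUC1 (0.36), and without SNUC1 the share was 18.1%, against 7.81% of all. On chromosome 13 it was 26.7% without LS513, against 7.91% of all. Lower genes were frequent on chromosome 18, with 20 of 171 (11.7%), on the X chromosome, with 40 of 372 (10.8%), and on chromosome 16, with 53 of 529 (10%). The excesses on the X chromosome and on chromosome 16 rested largely on SW948: without it 13.4% and 13.3% were lower, against 12.4% of all genes, and without SW1463 29.6% and 30.9%, against 12.8% of all. At the 99th percentile as background the X chromosome had 4.64% lower, against 3.93% of all. The share on chromosome 18 was 25.5% without SW948 and 18.1% without SW1463, and against all 16 lines it was 0.478%, against 0.631% of all. On the X chromosome they lay toward the end that follows SYTL4: the last 3 of 7 blocks had 24.5%, 17% and 22.6% lower, and the first block, from PLCXD1 to SH3KBP1, had 10 of 53 higher. Most single genes on these chromosomes differed little, with median differences of 0.30 on chromosome 11 and -0.29 on chromosome 15. ASCL2, STARD10, KCNQ1, FADS2 and ASRGL1 lie on chromosome 11, and RORA on chromosome 15. The number of DNA copies was not analysed here, and its part in these values was not tested.

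**Figure D5:**
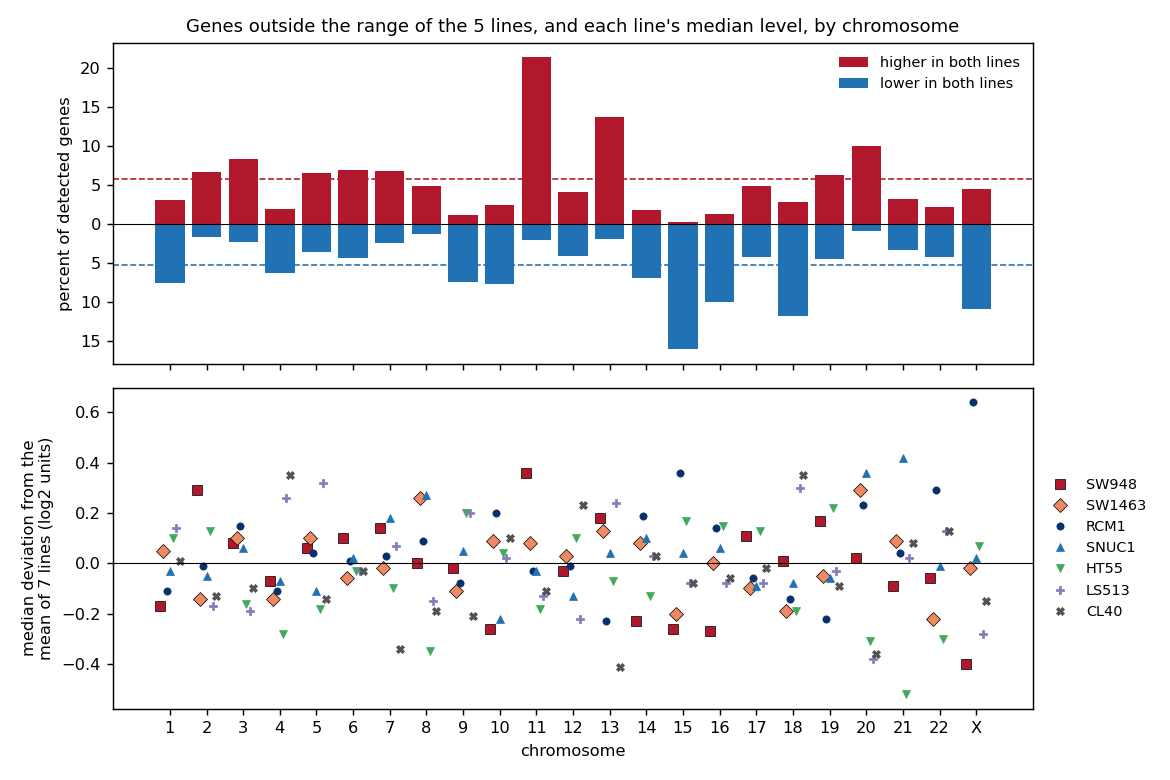
Upper panel, percent of detected genes on each chromosome that were higher (up) or lower (down) in both SW948 and SW1463, with dashed lines at 5.75% and 5.15%; lower panel, median deviation of each line's genes from the mean of the 7 lines in log2 units, SW948 and SW1463 leftmost. On chromosome 11 both lines lie above the 5 others, and on chromosome 15 both lie below.

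SW948 and SW1463 were closer to each other than any other 2 of the 7 lines, with a median absolute difference of 0.38 over detected genes, against 0.41 to 0.51 for the other 20 pairs. They were still far from the same. SW948 exceeded SW1463 by at least 3 log2 units in 115 genes (1.08% of 10600 above background in either), and SW1463 exceeded SW948 in 81 (0.764%). GREM1, a secreted BMP antagonist, measured 9.61 in SW948 and 3.19 in SW1463, against 3.74 in RCM1, 8.82 in SNUC1, 4.21 in HT55, 3.33 in LS513 and 3.26 in CL40. NMU, the neuropeptide neuromedin U, was 10.33 and 3.99 in SW948 and SW1463 and 9.27 to 11.54 in the 5 lines, and ANXA1, annexin A1, 11.07 and 5.32 in the pair and 10.23 to 11.53 in the 5 lines. SW1463 stood below all 5 lines for both genes. HLTF, a DNA helicase-like factor, was 9.69 and 3.58 in SW948 and SW1463, and PAX8-AS1, an antisense RNA, 10.08 and 3.11 in the same lines. The other way, CEL, a bile salt lipase, measured 3.37 in SW948 and 11.38 in SW1463, against 7.55 in RCM1, 3.20 in SNUC1, 8.72 in HT55, 4.35 in LS513 and 4.72 in CL40. PRAC1, a small nuclear protein of the distal colon and prostate, measured 3.02 in SW948 and 10.97 in SW1463, against 2.99 in RCM1, 2.98 in SNUC1, 2.92 in HT55, 2.95 in LS513 and 2.93 in CL40, and SW1463 alone of the 7 lines was above background. TM4SF4, a tetraspan membrane protein, was 5.75 and 12.41 in SW948 and SW1463, NOX1, a colonic NADPH oxidase, 4.72 and 10.61, and GBP3, a guanylate-binding protein, 3.79 and 9.50, each in that order of lines.

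The other 11 lines of the series were set beside these separations. All 11 had KRT20 at 4.87 or less, so they differ from both groups by the choice of lines. They cannot assign a separation to the pair or to the 5 lines. Of the 669 higher genes 119 were also above all 11, and of the 600 lower genes 86 were also below all 11. With a gap of at least 1 to all 16 lines, 6 genes were higher and 1 was lower: OLFM4, FAM3B, CHP2, LINC01106, CHDH and ZNF506 were higher, and PLS3 was lower. That OLFM4 lay above all 16 was fixed by the choice of the pair. CHDH, choline dehydrogenase, measured 8.78 in SW948 and 8.20 in SW1463, against 7.01 in RCM1, 6.78 in SNUC1, 6.01 in HT55, 7.0 in LS513 and 7.11 in CL40. ZNF506 measured 5.28 in SW948 and 5.66 in SW1463, against 3.45 in RCM1, 3.67 in SNUC1, 4.18 in HT55, 4.05 in LS513 and 3.33 in CL40. CHDH and ZNF506 were named after their values were seen. Each of the 11 lines by itself lay above all 5 for 30.6% to 48.7% of the higher genes, against 18.3% to 28.1% of all detected genes, and below all 5 for 40.3% to 58% of the lower genes, against 16.7% to 27.6%.

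A second probe set bore on part of the genes. Of 310 higher genes with a second probe set above background, 158 were higher by it as well (51%), and of 380 lower genes 202 were lower (53.2%), against 5.98% and 6.64% of all 5767 genes with such a probe set. With a gap of at least 1 the counts were 13 of 14 (92.9%) and 15 of 17 (88.2%). Of the 54 named genes that were called and had a second probe set, it left the groups overlapping or turned round in 22, and in 10 of these it was under background in all 7 lines. The other 12 were RUNX1, DRAM1, CDCA7, ELF3, BUB1, SPRY1, ERBB2, PMEPA1, TEAD4, ACSL5, SREBF2 and KCNQ1. Probe sets of a gene share the same RNA, so these are repeat readings and not repeat samples. Medium was shared by the pair and by HT55 and CL40. Among the higher genes, HT55 and CL40 lay together above the 3 lines in RPMI-1640 in 46 (6.88%) and below them in 102 (15.2%), against 9.34% and 11.5% of all detected genes. Among the lower genes they lay above in 71 (11.8%) and below in 49 (8.17%). Against HT55 and CL40 alone, OLFM4 differed by 7.33, MLF1 by -5.35 and CEACAM6 by -3.24.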

How the data were processed

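The deposited log2 values of 54613 probe sets on 18 arrays, which the authors made by RMA with affy according to the submitters' processing notes, were used as they were. Software versions and genome build: not given in the sources used here. A single gene was annotated to 40914 probe sets, several genes to 864 and no gene to 12835; of the single-gene probe sets 40858 were found by Entrez ID in a RefSeq table of assembly GRCh38.p14, used for names, chromosomes and gene order. A gene was read from its probe set with the highest mean. For background, 91 probe sets of 49 genes (55 listed) of other tissues were taken, at their 95th percentile. SDs are over the 5 lines. The members and the 30 lists (826 entries, 752 measured, 564 detected) were chosen with earlier results of these data known. No test was made.

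The genes named were OLFM4, ASCL2 and KRT20, the 20 higher and 15 lower genes with the widest gap, up to 4 per list by gap or the 2 with the largest difference where none separated, and 5 per direction between SW948 and SW1463, 114 in all; other genes were named after their values were seen. Promoter sequences are RefSeq's. The comparison was repeated with probe sets averaged, with the most variable probe set, after scaling the arrays, with other backgrounds, gaps and KRT20 limits, in 1 medium, against all 16 lines and without each line. Simulated data with known shifts were used to check the scripts. Python 3.11.15, pandas 2.3.3, numpy 2.4.6 and matplotlib 3.10.9 were used.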

Additional observations from a re-analysis of the deposited data

Results flagged for a closer look

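Among the 114 named genes, 13 had 1 of the 5 lines far from the other 4. The rule flags about 1 in 20 groups of random values. Most of these genes were picked by their values in the same arrays, so that rate is no baseline here. In LS513, DEFA5 was 9.92 against 2.97 to 3.58 in the other 4, and SLC7A2 was 3.92 against 4.46 to 4.56. TEAD4 in LS513 was 7.22 against 8.17 to 8.32, and ANXA1 was 10.23 against 11.36 to 11.53. HT55 was high for FAM3B (4.57 against 2.80 to 3.17), ELF3 (10.91 against 10.33 to 10.45) and ACSL5 (11.45 against 10.59 to 10.81). RCM1 was high for PAX6 (6.99 against 3.08 to 4.17), PTGS1 (5.59 against 3.19 to 3.44) and PLCG2 (6.66 against 3.79 to 4.43). SNUC1 was high for GREM1 (8.82 against 3.26 to 4.21) and FGB (4.85 against 3.44 to 3.53), and CL40 for SCG5 (7.86 against 3.41 to 4.63). FAM3B in HT55 and FGB in SNUC1 were only just above background.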

How the results depend on the processing

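Counts of genes depended on the lines compared and on the background more than on how probe sets were read. The counts of higher and lower genes, 669 and 600, were 2297 and 1907 against HT55 and CL40 alone, 119 and 85 against all 16 lines, 307 and 217 at a background of 8.43 (99th percentile) and 1141 and 1106 with no filter on dim genes. Fewer lines to exceed give more such genes by construction. With a gap of at least 1, 31 and 32 became 196 and 219, 6 and 1, and 7 and 8 under the first 3 of these settings; they were 91 and 96 at a gap of 0.5 and 6 and 10 at a gap of 2, and 21 genes were lower with the mean of all probe sets. Leaving out each line in turn gave 820 to 1944 higher and 784 to 1472 lower genes, and 41 to 177 higher and 38 to 127 lower genes with a gap of at least 1. The highest of these were without SW948 or SW1463, which were 1742 and 1944 higher and 1431 and 1472 lower genes, and 177 and 145 higher and 127 and 121 lower with the gap. With the gap, the count of higher genes was 50 without RCM1, 47 without HT55 and 51 without LS513, and that of lower genes 49 without RCM1, 58 without SNUC1 and 51 without LS513. The 196 genes that differed between SW948 and SW1463 by at least 3 were 500 at a limit of 2, 83 at a limit of 4 and 114 with the mean of all probe sets. The KRT20 limits of 9 and 11 chose the same lines. With the mean of all probe sets 494 of the higher and 402 of the lower genes kept their call, and 31 of 40 and 39 of 45 named ones; with array scaling 610 and 541 did. Against all 16 lines 16 named differences turned positive: KRT20 5.09, CEACAM6 1.28, SLPI 0.91, BMP4 0.37, ELF3 2.46, ERBB2 0.30, ACSL5 3.07, ABCC3 1.88, SCNN1A 2.38, CGN 0.37, JUP 0.92, LAMB3 0.10, KRT19 2.04, KRT8 1.19, KRT18 1.03 and SFN 0.90. The lines added here were those with KRT20 not above 10, so the positive KRT20 value followed from the choice of lines. By the probe set with the largest SD, AURKB became -0.27 and SMAD2 0.12; the cause was not tested. The percent of chromosome 11 genes higher was 18.5 to 26.1 under the other probe set, scaling and background settings, without counting the unfiltered 15. Over all 16 lines it was 2.52, against 0.884 of all genes. Without SW948 it was 28.7 against 15.1, and without SW1463 it was 50.2 against 16.9. These chromosome settings were chosen after seeing the data, as was a background of 5. No paired analysis was possible because each line has 1 array. For genes near background the signal limits the size of a difference.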

Other observations

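Probe sets with no single gene name held further separations: of 13699 such probe sets 3211 exceeded background in at least 1 of the 7 lines, 174 were higher and 130 lower in both SW948 and SW1463, and 8 and 3 of them had a gap of at least 1. They were left unnamed.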
